A study of Xenopus laevis with 9 samples.

Results

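Of the 15491 probe sets in the deposited table, 8 were annotated to snai1, snai2, twist1, zeb2 or ets1, the 5 transcription factor genes of the epithelial-to-mesenchymal transition (EMT) described here. They were every probe set whose annotated symbol, with the suffix .L or .S removed, was among these names, and no measured value entered the rule. The suffixes mark the long- and short-chromosome copies that Xenopus laevis keeps of many genes. The array held 1 probe set for snai1 (snai1.S), 2 for snai2 (snai2.L and snai2.S), 1 for twist1, 1 for zeb2 (zeb2.S) and 3 for ets1 (ets1.S and a pair for ets1.L). The twist1 probe set was annotated to both copies of its gene, so its signal cannot be assigned to either copy.

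RNA was taken from cranial neural crest that had been dissected from Xenopus laevis embryos, and was hybridised to 9 Affymetrix arrays. All embryos had received 10 ng of a morpholino as fertilised eggs and had grown at 15 °C to stages 15 to 17. The group CMO had a control morpholino, and the group MO13 had a morpholino against ADAM13, a cell-surface metalloprotease. The group MO13+C13 had the ADAM13 morpholino together with mRNA for a fusion of GFP and the ADAM13 cytoplasmic domain (C13). The mRNA dose was 300 pg by the sample labels and 0.5 ng by the series text, and the files do not settle which was used. Every group thus carried a morpholino, and no explant without one was analysed here. Each group had 3 arrays, 1 from each of 3 independent experiments, so experiments 1, 2 and 3 each gave 1 array of every group. The sources used here do not give the number of embryos behind an array.

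Neural crest cells arise at the border of the neural plate, lose their epithelial contacts and migrate away. Snai1, Snai2 (Slug) and Zeb2 are zinc finger repressors that bind E-box sequences and, in mammalian cells, shut down the E-cadherin gene cdh1. Twist1 is a basic helix-loop-helix factor that acts with E-proteins in the same transition, and Ets1 is an ETS-domain factor that, in the chick, takes part in the delamination of cranial crest. In Xenopus, snai2 and twist1 are standard markers of premigratory cranial crest.

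All values below are log2 intensities after GC-RMA, so a difference of 1 is a 2-fold difference in signal. Array medians ran from 4.88 to 5.07, lower quartiles from 1.78 to 1.89 and upper quartiles from 8.115 to 8.16. Detection calls were not used, so a low value cannot be told from background. Levels were read against array medians and quartiles and used to pick a gene's brightest probe set. No test compared levels between probe sets. Of 9 probe sets for cranial crest markers, 3 of which also belong to snai2 and twist1, 8 averaged above the lowest array median. The same held for 1 of 19 probe sets for mesoderm and muscle (ckm.L), 0 of 10 for blood and endothelium, 1 of 6 for placode, 1 of 5 for cement and hatching gland, 10 of 21 for neural plate and 14 of 23 for epidermis. In an explant, fewer cells of a type and less RNA per cell cannot be told apart. The probe set for adam33.L, the gene of ADAM13, averaged 3.64 in CMO, 4.34 in MO13 and 10.07 in MO13+C13 (5.73 above MO13, limma adjusted p = 0.00471). That call was lost without MO13 replicate 1 (adjusted p = 0.0508) and without MO13+C13 replicate 1, 2 or 3 (0.0605, 0.0564 and 0.0575). A morpholino acts on translation or splicing, so the level of this mRNA in MO13 checks nothing about the protein. MO13+C13 embryos carried injected mRNA for the cytoplasmic domain, and injected and endogenous mRNA were not told apart here. The other copy, adam33.S, averaged 1.56, 1.43 and 1.55 in CMO, MO13 and MO13+C13.

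The ADAM13 morpholino was followed by no change in any EMT factor that passed the test. Between MO13 and CMO, 0 of the 8 probe sets passed limma's test over all probe sets, where 0.0968% of all probe sets passed, and 0 had an unadjusted p under 0.05, where 6.87% of all probe sets did. With experiment as a block, again 0 passed, against 1.16% of all probe sets, and zeb2.S alone of the 8 had an unadjusted p under 0.05. The arrays of the groups overlapped for all 8, whereas 9.92% of all probe sets had groups that did not overlap. Of the 8 differences, 3 lay above 0 and 5 below, with a median of -0.11 beside -0.01 for all probe sets. Their median standard error was 0.28 without the block, against 0.19 for all probe sets. The fit without the block leaves the variation between experiments in its error. Standard errors and intervals below come from that fit unless the block is named.

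**Figure D1:**
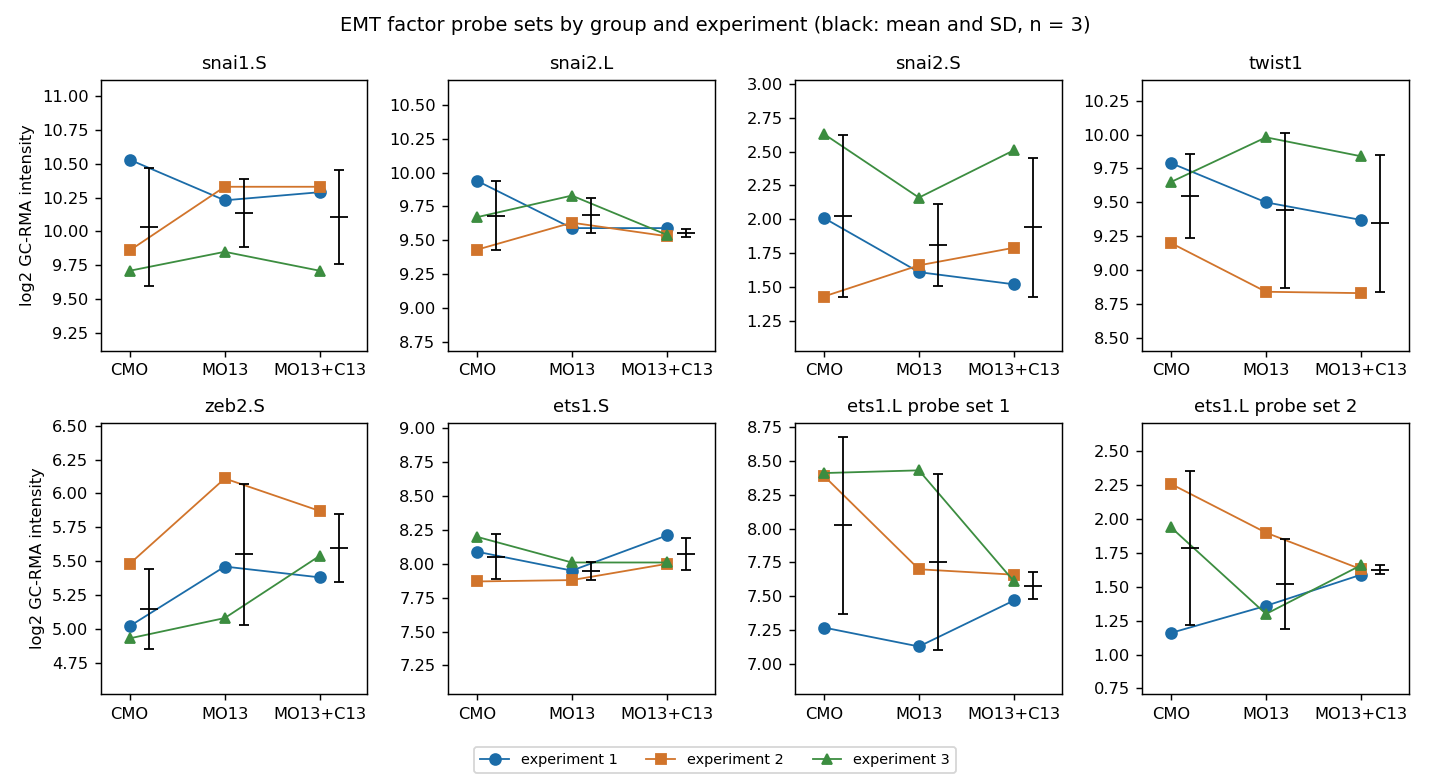
Log2 GC-RMA intensity of each EMT factor probe set in the 9 arrays, with experiments joined by lines and the black bars giving the mean and SD of 3 arrays. Every panel spans 2 log2 units. The 3 groups overlap in every panel, and for twist1 the line of experiment 2 lies below the other lines throughout.

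Of the snail genes, snai1.S and snai2.L had high signal in all groups and snai2.S had low signal. The snai1.S values of experiments 1, 2 and 3 were 10.53, 9.86 and 9.71 in CMO, 10.23, 10.33 and 9.85 in MO13, and 10.29, 10.33 and 9.71 in MO13+C13. All 9 lay above the upper quartile of their own array, and the 3 groups overlapped. The difference between MO13 and CMO was 0.10 (SE 0.26, 95% confidence interval -0.50 to 0.70, adjusted p = 0.994). With experiment as a block the interval was -0.27 to 0.48. The difference was below 0 in experiment 1 (-0.30) and above 0 in experiments 2 and 3 (0.47 and 0.14).

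For snai2, the values of snai2.L were 9.94, 9.43 and 9.67 in CMO, 9.59, 9.63 and 9.83 in MO13, and 9.59, 9.53 and 9.54 in MO13+C13. This was the crest marker with almost equal means in CMO (9.68, SD 0.26) and MO13 (9.68, SD 0.13). The difference of 0.0033 (SE 0.14) had a 95% confidence interval of -0.33 to 0.34, which is 0.796-fold to 1.26-fold. The blocked interval was -0.31 to 0.32. The MO13+C13 arrays lay within a range of 0.06 (SD 0.03) and inside the range of CMO. The other copy, snai2.S, ran from 1.43 to 2.63 over the 9 arrays and was under its array's lower quartile in 5 of them. Its difference of -0.21 (SE 0.35) between MO13 and CMO lies at a signal where expression of this copy cannot be told from background.

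zeb2.S had the member difference farthest from 0. Its values were 5.02, 5.48 and 4.93 in CMO, 5.46, 6.11 and 5.08 in MO13, and 5.38, 5.87 and 5.54 in MO13+C13, above the array's own median in 8 of 9 arrays. Within each experiment the MO13 array was above the CMO array, by 0.44, 0.63 and 0.15, while the groups as wholes overlapped because experiment 2 was high in all of them. The mean difference was 0.41 (SE 0.28, 1.33-fold, 95% confidence interval -0.22 to 1.04, limma adjusted p = 0.895). With experiment as a block the interval was 0.07 to 0.74, with an unadjusted p of 0.0245, which did not pass after adjustment (adjusted p = 0.223). An unadjusted p under 0.05 with the block was found for 16.4% of all probe sets, and 17.7% of them were higher in MO13 in 3 of 3 experiments. zeb2.S was also the 1 member in the authors' deposited table of genes affected by loss of ADAM13, which lists 6121 probe sets, 39.5% of the array, under the title Smad-interacting protein 1. In the authors' deposited table its average log2 changes were 0.41 for MO13 over CMO and 0.05 for MO13+C13 over MO13.

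The twist1 values were 9.79, 9.20 and 9.65 in CMO, 9.50, 8.84 and 9.98 in MO13, and 9.37, 8.83 and 9.84 in MO13+C13. Signal was above the upper quartile in every array, and the arrays of experiment 2 were the lowest of each group. MO13 differed from CMO by -0.11 (SE 0.34, 95% confidence interval -0.89 to 0.68, adjusted p = 0.995), or -0.47 to 0.26 with experiment as a block. Experiments 1 and 2 gave -0.29 and -0.36, and experiment 3 gave 0.33.

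Among the ets1 probe sets, ets1.S varied least. It read 8.09, 7.87 and 8.20 in CMO, 7.95, 7.88 and 8.01 in MO13, and 8.21, 8.0 and 8.01 in MO13+C13, a range of 0.34 over the 9 arrays. Its difference between MO13 and CMO was -0.11 (SE 0.12, 95% confidence interval -0.39 to 0.18, or 0.764-fold to 1.13-fold). The blocked interval was -0.36 to 0.15. The first ets1.L probe set had 7.27, 8.39 and 8.41 in CMO, 7.13, 7.70 and 8.43 in MO13, and 7.47, 7.66 and 7.61 in MO13+C13. CMO and MO13 each spread over more than 1 log2 unit here (SD 0.65 in both), against an SD of 0.10 in MO13+C13. The difference of -0.27 (SE 0.38) had the interval -1.15 to 0.61 and came mostly from experiment 2 (-0.69, beside -0.14 and 0.02). With experiment as a block the interval was -0.825 to 0.285. The second ets1.L probe set ran from 1.16 to 2.26 and was under the lower quartile in 6 of 9 arrays.

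**Figure D2:**
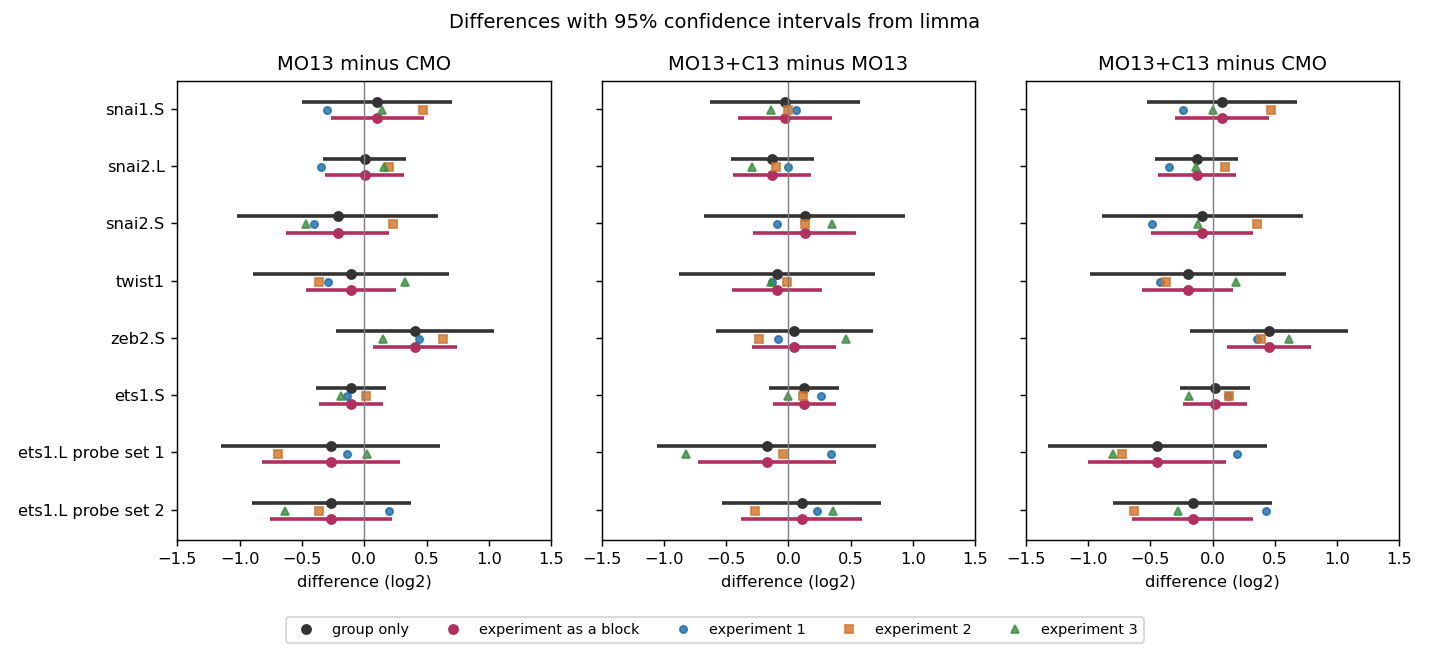
Differences in log2 intensity for the 3 comparisons. Large points and lines give the limma estimate with its 95% confidence interval, with group as the only term (dark) and with experiment as a block (red), and small markers give the difference within each experiment. Of the 24 pairs of intervals, only the blocked intervals of zeb2.S against CMO (0.07 to 0.74 and 0.12 to 0.79) leave out 0.

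Adding the cytoplasmic domain to the morpholino was likewise followed by no change that passed. Between MO13+C13 and MO13, 0 of the 8 probe sets passed limma's test, with or without the block, where 0.00646% of all probe sets passed in either fit, and 0 had an unadjusted p under 0.05 in either fit, beside 1.36% of all probe sets without and 6.71% with the block. In both fits the 1 probe set that passed was adam33.L, so no other probe set on the array passed this comparison. All 8 had overlapping groups, while 4.51% of all probe sets did not overlap. The differences were 4 above and 4 below 0, with a median of 0.01 and a largest size of 0.17.

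No member moved from MO13 toward CMO by an amount that passed. twist1 was the 1 member with the same direction in 3 of 3 experiments, at -0.13, -0.01 and -0.14 (mean -0.09, SE 0.34, adjusted p = 1), and 25.7% of all probe sets had 1 direction in all 3. For zeb2.S, MO13+C13 lay 0.05 from MO13 (SE 0.28, 95% confidence interval -0.58 to 0.68), with -0.08, -0.24 and 0.46 in the 3 experiments. With experiment as a block that interval was -0.29 to 0.38. snai2.L gave -0.13 (SE 0.14, interval -0.46 to 0.20), and snai1.S gave -0.03 (SE 0.26, interval -0.63 to 0.57). ets1.S gave 0.13 (SE 0.12, interval -0.16 to 0.41) and the first ets1.L probe set -0.17 (SE 0.38, interval -1.05 to 0.71). The blocked intervals were -0.46 to 0.27 for twist1, -0.45 to 0.19 for snai2.L and -0.40 to 0.35 for snai1.S. They were -0.13 to 0.38 for ets1.S and -0.73 to 0.38 for the first ets1.L probe set.

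Against CMO, the MO13+C13 arrays share the control arrays of the first comparison, so both are given as they stand. Here too 0 of 8 passed without the block (0.142% of all probe sets) and 0 with it (1.76%), and the groups overlapped for all 8 (12.6% of all probe sets did not overlap). An unadjusted p under 0.05 was found for 0 of 8 without the block (7.15% of all probe sets) and for 1 of 8 with it (16.1%). zeb2.S was 0.45 higher (SE 0.28, 1.37-fold, limma adjusted p = 0.864) and higher in 3 of 3 experiments, by 0.36, 0.39 and 0.61, as were 19.1% of all probe sets. Its blocked interval was 0.12 to 0.79 (unadjusted p = 0.0153, adjusted p = 0.185). The first ets1.L probe set differed by -0.44 (SE 0.38, interval -1.32 to 0.44), with -0.73 and -0.80 in experiments 2 and 3 but 0.20 in experiment 1. The blocked interval of that probe set was -0.998 to 0.112. Differences of the remaining 6 lay between -0.20 (twist1) and 0.08 (snai1.S).

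The order of the group means was therefore not settled for any gene. snai1.S ran MO13, MO13+C13, CMO from the highest (10.14, 10.11 and 10.03). twist1 ran CMO, MO13, MO13+C13 (9.55, 9.44 and 9.35), as did the first ets1.L probe set (8.02, 7.75 and 7.58). zeb2.S ran MO13+C13, MO13, CMO (5.60, 5.55 and 5.14), and no neighbours in any of these orders differed by an amount that passed.

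For all 8 EMT factor probe sets the experiment took a larger share of the variation than the group, as it did in the total over all probe sets (57.6% against 22.5%). The share of single probe sets on the whole array for which this held was not counted. It is therefore not shown to be particular to the 8. The experiment took 27.4% to 83.3% of the sum of squares of the 8 probe sets over the 9 arrays, and the group took 2.2% to 30.7%. In a fit with group and experiment, the experiment term passed limma's F test for 3 of 8 probe sets, twist1, zeb2.S and snai2.S. Over all probe sets 21.1% passed. For 4 of 8, all 3 arrays of 1 experiment lay outside the range of the other 6 arrays, as for 30.4% of all probe sets.

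twist1 averaged 9.55 (SD 0.21, n = 3), 8.96 (SD 0.21) and 9.82 (SD 0.17) in experiments 1, 2 and 3. All 3 arrays of experiment 2 lay below the other 6, and the highest and lowest means differed by 0.87, or 1.82-fold (limma adjusted p = 0.0191 for the experiment term). The experiment took 83.3% of its sum of squares and the group 4.2%. Its call was lost without MO13 replicate 2 (adjusted p = 0.0807), MO13 replicate 3 (0.0502) or MO13+C13 replicate 2 (0.0841).

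zeb2.S averaged 5.29 (SD 0.23), 5.82 (SD 0.32) and 5.18 (SD 0.32), so experiment 2, where twist1 was lowest, had the highest zeb2.S. The difference of 0.64 between experiments 2 and 3 was 1.56-fold (adjusted p = 0.0353 for the term), and the arrays of the experiments overlapped. Without CMO replicate 1, 2 or 3 its adjusted p was 0.0723, 0.0918 and 0.0859. It was 0.14 without MO13 replicate 2, and 0.0594 and 0.0806 without MO13+C13 replicate 1 or 2.

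snai1.S averaged 10.35 (SD 0.16), 10.17 (SD 0.27) and 9.76 (SD 0.08), and the 3 arrays of experiment 3 lay below the other 6. The difference of 0.59, or 1.51-fold, did not pass (adjusted p = 0.0696), but passed without CMO replicate 2 (0.0385). With any other single array left out, snai1.S did not pass (limma F test, adjusted p from 0.0601 to 0.188). snai2.L averaged 9.71, 9.53 and 9.68, with no experiment apart and an adjusted p of 0.543 for the term. The dim snai2.S was highest in experiment 3 (2.43, beside 1.71 and 1.63, adjusted p = 0.029). It lost its call without CMO replicate 3 (0.126), MO13 replicate 2 or 3 (0.0504 and 0.0533), or MO13+C13 replicate 2 or 3 (0.0566 and 0.0901).

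ets1.S was even across experiments at 8.08, 7.92 and 8.07 (adjusted p = 0.425). The first ets1.L probe set averaged 7.29 (SD 0.17), 7.92 (SD 0.41) and 8.15 (SD 0.47), with experiment 1 below all other arrays. Its term did not pass (adjusted p = 0.0729), but passed without MO13+C13 replicate 1 (0.028) or 3 (0.0374). With any other single array left out, the term did not pass (limma F test, adjusted p from 0.1 to 0.247).

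**Figure D3:**
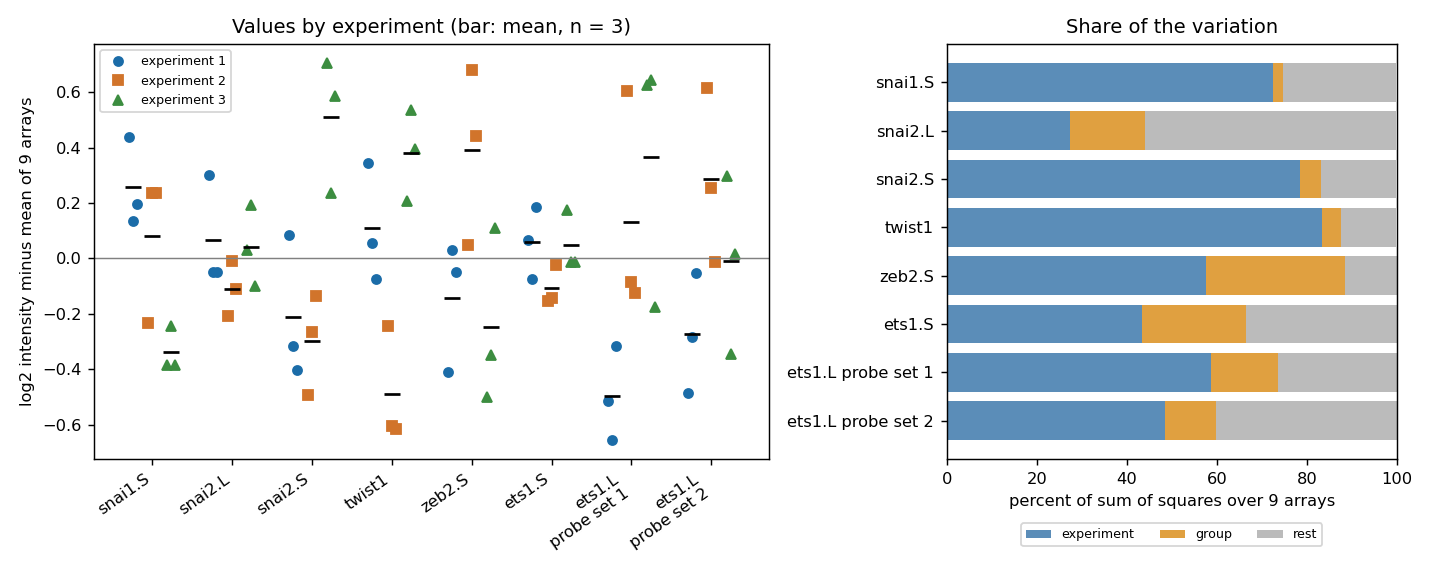
Left, log2 intensity of each EMT factor probe set minus its mean over 9 arrays, by experiment, with bars at the mean of 3 arrays. Right, the share of each probe set's sum of squares taken by experiment, by group and by the rest. Experiment 2 is apart for twist1, experiment 3 for snai1.S and snai2.S and experiment 1 for the first ets1.L probe set, and the experiment share is highest for twist1 (83.3%) and lowest for snai2.L (27.4%).

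Marker lists were also compared by experiment, beside the values above. The mean over the crest list ran from 8.454 to 8.688 in experiment 1, from 8.214 to 8.382 in experiment 2 and from 8.46 to 8.754 in experiment 3. Experiment 2, where twist1 was lowest, thus had the lowest crest list, which holds twist1 itself and both snai2 probe sets. Among its other probe sets, tfap2a.L, foxd3.S and foxd3.L were also lowest in experiment 2. sox9.S was lowest in experiment 3, and tfap2b.L and sox10.L were lowest in experiment 1. The mean over the epidermis list ran from 5.241 to 5.864, from 5.597 to 6.268 and from 5.875 to 6.202 in the same order. For mesoderm and muscle the ranges were 1.936 to 2.202, 1.944 to 2.153 and 1.904 to 1.987, for blood and endothelium 1.73 to 1.877, 1.691 to 1.789 and 1.754 to 1.999, and for neural plate 5.223 to 5.257, 4.877 to 5.189 and 5.151 to 5.243. The lowest value on any array was 0.28, and a log2 value above 0 does not show that a marker's RNA was present. Of the mesoderm and muscle probe sets, 12 of 19 averaged under the highest lower quartile of the arrays (1.89). The same held for 8 of 10 blood and endothelium probe sets. The part of these tissues in the experiment differences was not tested.

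Cadherin genes were chosen for their role after their values had been seen. The experiment term passed for the E-cadherin copy cdh1.S and 1 of 2 N-cadherin copies. It did not pass for the other cadherins of the lists, cdh3.L, cdh3.S, cdh6.L and cdh11.S (limma F test, adjusted p = 0.133, 0.208, 0.412 and 0.299). Over all probe sets 21.1% passed. cdh1.S, which snail and zeb proteins repress in mammalian cells, averaged 5.00 (SD 0.33), 6.32 (SD 0.32) and 2.58 (SD 0.34) in experiments 1, 2 and 3 (limma adjusted p = 0.000732). Its experiment term passed in 12 of 12 alternatives, with a highest adjusted p of 0.00647. cdh1.S was thus highest in experiment 2, where zeb2.S was also highest and twist1 lowest, and lowest in experiment 3, where zeb2.S and snai1.S were also lowest and twist1 highest. The snai2 probe sets ran otherwise. snai2.L was lowest in experiment 2 (9.71, 9.53 and 9.68 in experiments 1, 2 and 3). The dim snai2.S was lowest in experiment 2 and highest in experiment 3 (1.63 and 2.43). A link of cdh1.S to any of these genes was not tested. cdh2.S, an N-cadherin copy, averaged 9.65, 9.98 and 8.80 (adjusted p = 0.00275, passing in 13 of 13 alternatives), while cdh2.L averaged 10.23, 9.98 and 10.11 (adjusted p = 0.31). By group, cdh1.S differed by -0.14 (SE 1.34, limma adjusted p = 0.997) between MO13 and CMO without the block. That SE holds the large variation of cdh1.S between experiments. In experiments 1, 2 and 3, cdh1.S read 5.38, 6.19 and 2.62 in CMO and 4.79, 6.08 and 2.90 in MO13. With experiment as a block the difference did not pass either (limma adjusted p = 0.846). The mesenchymal genes vim.L (vimentin) and fn1.S (fibronectin) had adjusted p-values of 0.539 and 0.259 for experiment. The other vimentin copy, vim.S, averaged 7.43, 8.31 and 8.17 (adjusted p = 0.0658, passing in 3 of 13 alternatives). These genes do not stand for their list of EMT and migration effectors, where the experiment term passed for 15 of 39. Those passing included epcam.L, pdgfra.L, itgb1.S and mmp14.L (limma F test, adjusted p = 0.00572, 0.0058, 0.00924 and 0.0159). The copies epcam.S and itgb1.L did not pass (0.141 and 0.212).

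Regulators with roles around these factors, likewise chosen after their values had been seen, gave the following. foxd3.S, a crest specifier upstream of the transition, averaged 9.39, 8.23 and 8.76 in the 3 experiments (adjusted p = 0.0109, passing in 13 of 13 alternatives). Like twist1, it was lowest in experiment 2. The other copy, foxd3.L, did not pass (adjusted p = 0.16), nor did the specifier sox10.L (6.53, 6.58 and 7.10, adjusted p = 0.226), which was lowest in experiment 1. The corepressor genes kdm1a.S (a histone demethylase that binds Snail in mammalian cells) and ezh2.L (the Polycomb methyltransferase) had adjusted p-values of 0.51 and 0.634 for experiment. eed.S, the Polycomb partner of Ezh2, averaged 10.13, 10.09 and 9.59 in the 3 experiments (adjusted p = 0.0194, passing in 9 of 13 alternatives). The term also passed for the dim corepressor probe set ctbp1.L (adjusted p = 0.0189). It passed neither for the other copy, eed.L (adjusted p = 0.448), nor for suz12 (0.107). fbxl14.S, whose product targets snail and twist proteins for degradation in Xenopus, averaged 3.39, 3.06 and 3.21 in CMO, MO13 and MO13+C13 (adjusted p = 0.974 between MO13 and CMO).

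Genes acting before, with and after the EMT factors were taken from 5 lists. Copies .L and .S, and entries without a suffix, were counted separately as genes. In none of the 5 lists did a gene pass limma's test without the block in any comparison. Between MO13 and CMO, neural plate border factors had 9 higher and 12 lower of 21 (median -0.09), and 2 had an unadjusted p under 0.05, both lower. Neural crest specifiers had 10 higher and 12 lower of 22 (median -0.04, 3 with an unadjusted p under 0.05). Partners and turnover factors of snail, twist and zeb had 11 and 11 of 22 (median 0.02, 1 with an unadjusted p under 0.05). EMT and migration effectors had 13 higher and 26 lower of 39 (median -0.14, 3 with an unadjusted p under 0.05), and crest-inducing signals 17 and 20 of 37 (median -0.06, 2 with an unadjusted p under 0.05). The effector medians within experiments 1, 2 and 3 were -0.21, -0.09 and 0.01, so the median of experiment 3 was not below 0. In the other comparisons, an unadjusted p under 0.05 was found for 1 effector and 2 signal genes between MO13+C13 and MO13, and for 2 border factors, 3 specifiers, 2 partners, 3 effectors and 3 signal genes between MO13+C13 and CMO. Over all probe sets the shares with an unadjusted p under 0.05 were 6.87% for MO13 against CMO, 1.36% for MO13+C13 against MO13 and 7.15% for MO13+C13 against CMO. For MO13+C13 against MO13, which shares the MO13 arrays, effectors were 26 higher and 13 lower (median 0.11). The experiment term passed for 15 of 39 effectors (38.5%), 10 of 37 signal genes (27%), 4 of 21 border factors (19%), 3 of 22 partners (13.6%) and 2 of 22 specifiers (9.09%). Over the 5 lists it passed for 34 of 141 genes (24.1%), beside 21.1% of all probe sets.

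**Figure D4:**
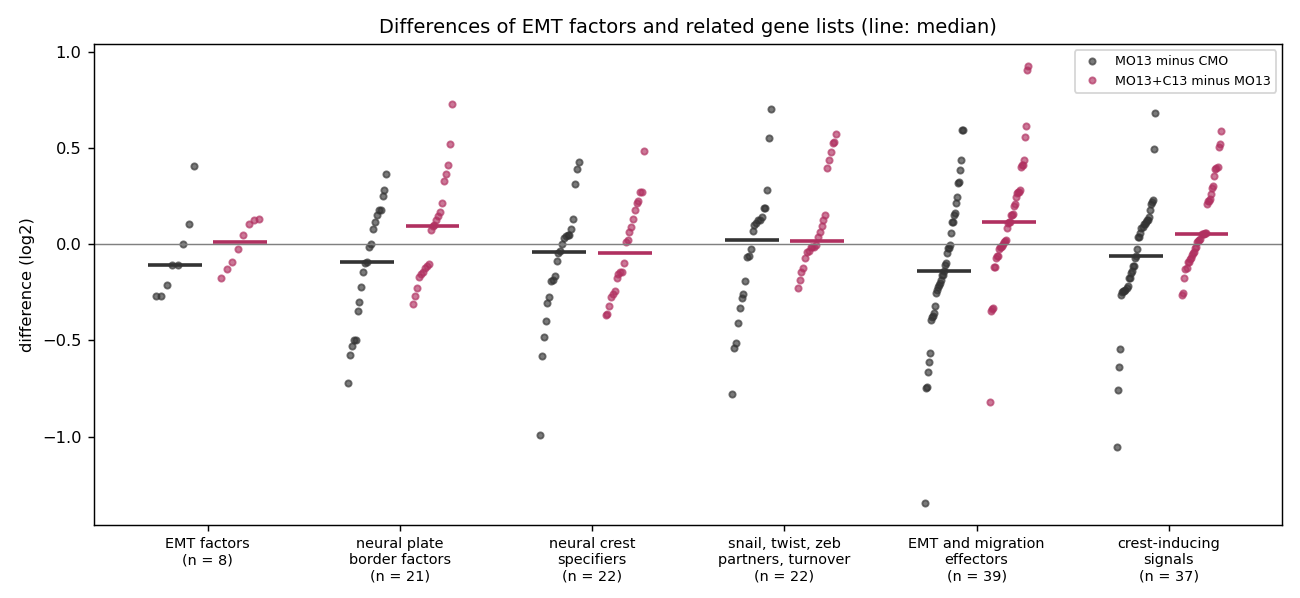
Differences in log2 intensity for the 8 EMT factor probe sets and for the 5 gene lists, MO13 minus CMO (dark) and MO13+C13 minus MO13 (red), with lines at the medians. The EMT factors lie within 0.41 of 0 in both comparisons, and the medians of the lists lie between -0.14 and 0.11.

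With experiment as a block, 4 of the 141 list genes passed in at least 1 comparison, 2 between MO13 and CMO and 3 between MO13+C13 and CMO, where 1.16% and 1.76% of all probe sets passed. nr2f1.L, a nuclear receptor among the crest specifiers, fell by 0.99 in MO13 against CMO (limma adjusted p = 0.0257, lower in 3 of 3 experiments). The call was lost without any single CMO or MO13 array (adjusted p from 0.0664 to 0.127), and with the compared arrays alone (0.0735). bmp7.2.L, a BMP ligand, fell by 1.05 in MO13 (adjusted p = 0.0205) and by 1.03 in MO13+C13 (adjusted p = 0.0173) against CMO, in 3 of 3 experiments each. The first call was lost without any single CMO or MO13 array and without MO13+C13 replicate 2 (0.054 to 0.0988), as well as with the compared arrays alone (0.0735), and the second without CMO replicate 1 or 3 or any MO13+C13 array (0.0629 to 0.083). Both bmp7.2.L calls were also lost with experiment as a random block (adjusted p = 0.295 and 0.31). pak1.S, a kinase that phosphorylates Snail in mammalian cells, rose by 1.18 in MO13+C13 against CMO (adjusted p = 0.0411), a call lost without any single array except MO13 replicate 1 (0.0519 to 0.159). The pak1.S call was also lost with experiment as a random block (0.0822). cldn6.2.S, a tight junction claudin, rose by 0.94 in the same comparison (adjusted p = 0.0172), a call lost without any single CMO or MO13+C13 array (0.0532 to 0.102). The random block kept the nr2f1.L and cldn6.2.S calls (limma adjusted p = 0.0244 and 0.0444).

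Named by the smallest unadjusted p between MO13 and CMO, the remaining list genes did not pass in either fit. Among border factors these were znf703.L (-0.35), dlx5.L (-0.58), pax3.S (0.36) and dlx3.L (-0.50), and among specifiers id2.L (-0.58), sox9.S (0.43) and id4.S (-0.28). Among partners they were the deacetylase hdac2.S (-0.78), the casein kinase csnk1a1.S (0.55), the corepressor sin3a.S (0.28) and the E-protein tcf4.S (-0.51), a dimer partner of Twist. Among effectors they were the type II cadherin cdh6.L (-0.39), the syndecan sdc4.S (0.44), the chemokine receptor cxcr4.S (-1.34) and the claudin cldn4.L (-0.32). The signal genes were bmp4 (-0.64), tcf7l1.L (0.68), the Wnt receptor fzd3.L (0.21) and the ligand wnt3a.S (-0.76). Several of these values moved by over 1.5 times when 1 array was left out without the block. Such a fit keeps the experiment of that array in 1 compared group only, so it mixes experiment and group differences. Without MO13 replicate 2, cxcr4.S was -0.70, and its differences within experiments 1, 2 and 3 were -0.92, -2.49 and -0.62. Without CMO replicate 3, pax3.S was 0.20, sox9.S 0.28, csnk1a1.S 0.29, tcf4.S -0.26 and wnt3a.S -0.45. Within experiments 1, 2 and 3, tcf4.S differed by -0.47, -0.46 and -0.61, and wnt3a.S by -0.60, -1.04 and -0.63. In the same order pax3.S differed by 0.29, 0.23 and 0.57, sox9.S by 0.37, 0.23 and 0.68, and csnk1a1.S by -0.02, 0.70 and 0.98. dlx3.L was -0.25 without CMO replicate 2, cldn4.L was -0.20 and wnt3a.S -0.49 without MO13 replicate 1, and fzd3.L was 0.13 without MO13 replicate 3. Group means of znf703.L (1.69 to 2.16), id4.S (1.16 to 1.44) and cdh6.L (1.31 to 1.70) lay near or under the arrays' lower quartiles. At such levels signal cannot be told from background. Group means of wnt3a.S (2.07 to 2.83), tcf4.S (2.53 to 3.06) and bmp4 (2.60 to 3.23) lay under the lowest array median of 4.88. So did those of sin3a.S (2.90 to 3.31) and hdac2.S (3.79 to 4.57). As detection calls were not used, low signal limits these differences too. Other entries of the same genes in the lists gave 0.08 (znf703.S), -0.30 (znf703), 0.25 (pax3.L), -0.01 (dlx3.S), -0.48 (id2.S), 0.19 (csnk1a1.L), 0.32 (sdc4.L), -0.24 (cxcr4.L), -0.26 (bmp4.S) and 0.22 (tcf7l1.S). Entries without .L or .S, such as znf703 and bmp4, were not assigned to a single copy. The symbol tcf4.S had 3 further probe sets, whose values are not given here.

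For each gene's brightest probe set, the most alike probe sets of other genes, with 1 symbol each, were taken by Pearson's r over the 9 arrays. The arrays share their experiments and their normalization, so r is a description only. For snai1.S they were c1orf52.L (r = 0.97), npm3.L (0.94) and lsm3.S (0.94). For twist1 they were tfb1m.L (r = 0.95), manbal.L (0.95) and eef1akmt1.S (0.94), and within experiments these r were 0.73, 0.66 and 0.71. zeb2.S had gsta1.S (r = 0.97), atp5mc1.S (0.96) and rcan1.S (0.94). ets1.S had epas1.L (r = 0.94), glul.L (0.94) and hmbox1.L (0.93), the last with a mean signal of 1.63, where signal and background cannot be told apart. For snai2.L the 3 were evl.L (r = 0.95), sgpl1.L (0.92) and mig30.L (0.92), all with similarly low mean signals of at most 1.58.

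No other EMT factor was among those listed for a member. The twist1 probe set, annotated to both copies, could not be listed, because only probe sets with 1 symbol were searched. Between members, r over the 9 arrays ran from -0.82 for twist1 and zeb2.S to 0.62 for twist1 and snai2.S. After the experiment means were taken out, those r were -0.51 and -0.13. For the 2 ets1.L probe sets r was 0.55, for snai2.L and snai2.S 0.35, and for snai1.S and snai2.L 0.30, or 0.75 within experiments.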

How the data were processed

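The deposited values are log2 intensities, 1 per probe set and array, which the authors made with GCRMA, and the submitters' processing notes name Affymetrix Expression Console as the program. The sources used here give no versions. The authors' lists carry the same log2 values (largest difference from the values used here, 0) and average log2 changes, per the file headers, and the sources used here do not name the test behind them. All value columns were mapped to samples.

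In R 4.3.3, limma 3.58.1 (lmFit, then eBayes) was fitted to all 9 arrays and 15491 probe sets to compare the groups by two-sided tests. Adjusted p-values are Benjamini-Hochberg values over the whole table, with a threshold of 0.05. Group was the only term. Experiment was a block in the foremost alternative, and its own term was tested with an F test in the fit with both. Per the labels, the replicate number marks a shared experiment (DA4, DA5 or DA2). The check bore on 9 pairs of arrays from 1 experiment, whose deviations from group means correlated at 0.506 to 0.734, against at most -0.059 for other pairs. Deviations from a group mean cancel within the group, so positive values for these pairs force negative ones among the others. The negative values are therefore not separate evidence of pairing. Experiment took 57.6% of the sum of squares over all probe sets, group 22.5% and the rest 19.8%. Precision is limited by 3 arrays per group. The fits were tested on simulated data.

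Gene symbols came from the platform annotation (9304 probe sets with 1 symbol, 195 with several, 5992 with none), updated through the RefSeq gene table, where 9227 gene identifiers matched. Each list gene was represented by its brightest probe set. From each list up to 4 genes by unadjusted p between MO13 and CMO were named, with any gene passing in either fit. The members, lists and tests were chosen with earlier results of these data known. Alternatives were the block (fixed or random), only the compared arrays, leaving out probe sets averaging under 4.88, centring arrays on their medians, limma's trend and robust options, and leaving out each array or experiment. No genome sequence was used.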

Additional observations from a re-analysis of the deposited data

How the results depend on the processing

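No EMT factor probe set passed in any of the 3 comparisons under any alternative run. The lowest adjusted p for zeb2.S, over leave-outs and other settings, was 0.112 for MO13 against CMO and 0.117 for MO13+C13 against CMO. The replicate block changed no call of the EMT factors but moved the count over all probe sets for MO13 against CMO to 179, from 15 without it, and for MO13+C13 against CMO to 272, from 22. A random block gave 144 and 239, only the compared arrays 0 and 9, the compared arrays with the block 0 and 265, low probe sets left out together with the block (chosen after seeing the data) 186 and 272. For MO13 against CMO, leaving out low probe sets alone gave 9, and trend and robust options gave 8. With 1 array or experiment left out, with or without the block, these counts ran from 0 to 183 and from 0 to 421, and for MO13+C13 against MO13 from 0 to 2. Leaving out single arrays with the block was likewise chosen after seeing the data. Those fits gave the single-array losses of blocked calls above and both lowest zeb2.S values. The experiment term passed for 3271 probe sets, for 2088 as the only term and for 1529 to 2891 with 1 array left out. It passed for 0 to 3 EMT factors with 1 array left out. With arrays centred, zeb2.S between MO13+C13 and MO13 turned to -0.01, snai1.S passed for experiment (adjusted p = 0.0391) and snai2.S did not (0.0507). Trend and robust options gave 0.0202 for snai1.S, 0.0315 for the first ets1.L probe set and 0.063 for zeb2.S, and experiment as the only term gave 0.127 for zeb2.S. The sign of several small differences depended on which array or experiment was left out. Without the block, leaving out 1 array keeps its experiment in 1 compared group only, so those fits mix experiment and group differences. Within experiments, twist1 between MO13+C13 and MO13 stayed below 0 (-0.13, -0.01 and -0.14). For cdh1.S between MO13 and CMO, blocked fits without experiment 1, 2 or 3 gave 0.085, -0.155 and -0.35. How much of each range below came from this mixing was not tested. Between MO13 and CMO the leave-out ranges were -0.08 to 0.35 for snai1.S, -0.12 to 0.18 for snai2.L, -0.51 to 0.09 for snai2.S, -0.38 to 0.19 for twist1, -0.65 to 0.042 for the first ets1.L probe set and -1.20 to 0.71 for cdh1.S. Between MO13+C13 and MO13 they were -0.17 to 0.17 for snai1.S, -0.16 to 0.34 for snai2.S, -0.39 to 0.18 for twist1, -0.19 to 0.33 for zeb2.S, -0.49 to 0.17 for the first and -0.02 to 0.30 for the second ets1.L probe set. Between MO13+C13 and CMO they were -0.12 to 0.33 for snai1.S, -0.25 to 0.0033 for snai2.L, -0.38 to 0.22 for snai2.S, -0.45 to 0.058 for twist1, -0.072 to 0.13 for ets1.S and -0.47 to 0.077 for the second ets1.L probe set. zeb2.S kept its sign against CMO throughout, from 0.13 to 0.64 for MO13 and from 0.31 to 0.62 for MO13+C13. Signals of snai2.S and the second ets1.L probe set, near the arrays' lower quartiles, limit what their values show.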
